A study of Saccharomyces eubayanus and Saccharomyces cerevisiae x Saccharomyces eubayanus with 20 samples.

Results

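The comparison set 2 cultures of S. eubayanus IMX1939 grown on maltose against 2 cultures of the same strain grown on glucose, chosen by strain and sugar label, which are 4 of the 20 RNA libraries of the study. S. eubayanus is the cold-tolerant wild yeast that gave one of the parental genomes of lager brewing yeast. IMX1939 derives from the Himalayan isolate CDFM21L.1, which does not use maltose although it carries maltose genes. The strain is MATa/MATalpha, lacks both alleles of the maltose transporter gene SeMALT1, and carries at the SGA1 locus an expression cassette in which the ScPGK1 promoter drives ScMAL13, a maltose regulator gene of S. cerevisiae. The deletion and the cassette were present in the maltose and the glucose cultures alike, so that sugar was the only labelled difference. Cultures were grown in synthetic medium with 20 g/liter of maltose or of glucose and sampled in mid-exponential phase. IMX1765, used for 1 comparison below, carries the same cassette with SeMALT1 intact. IMX1939 is a single engineered strain, and no source used here states whether the cultures came from separate colonies. The p-values below therefore measure only spread between cultures, pooled over the 12 libraries in 6 groups of the fit.

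In Saccharomyces yeasts, maltose enters the cell through a proton symporter of the MALT or AGT1 type and is split by a maltase into glucose. The genes for both are switched on by a MAL regulator when maltose is present and are repressed by glucose. Glucose also holds down genes for respiration, for the use of lactate, acetate and fatty acids, and for high-affinity or alternative sugar transport, partly through the repressor Mig1, while the hexose transporter genes HXT1 and HXT3 need glucose for their expression.

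The 4 libraries held between 18392430 and 21896254 reads on genes, recovered from the FPKM values (fragments per kilobase of gene, scaled to a common library depth), so that 1 read on a gene of 1000 bases was worth 0.0457 to 0.0544 FPKM. Of 5399 genes tested, 5213 lay outside chromosome 9 and 186 on chromosome 9, and the chromosome is described apart because its genes were shifted as a whole. Outside it, 975 genes were higher on maltose (18.7% of those tested) and 330 were lower (6.33%) at a Benjamini-Hochberg adjusted p under 0.05 in limma on log2(FPKM + 1). The median difference of these genes was 0.09, and 554 of the higher and 106 of the lower genes differed by at least 1 on that scale. The split depended on how libraries were scaled: median-ratio scaling gave 818 higher and 635 lower genes with a median of -0.03, and quantile normalization 706 higher and 934 lower with a median of -0.17. The glucose cultures differed from each other by 1 log2 unit or more at 305 genes outside chromosome 9 and the maltose cultures at 199, and 48 of the 305 were among the 1305 called genes. Since 2 cultures against 2 cannot give an exact permutation p under 0.333, tests rest on the spread shared by the 6 groups of the fit.

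SGA1, the gene of chromosome 9 replaced by the cassette, held 0 and 6 reads in the maltose cultures and 0 and 2 in the glucose cultures. It was too low to test. The cassette with ScMAL13 thus sits on the chromosome that was shifted in the maltose cultures. SeMALT1 (chromosome 2, 20652 to 22436 in the CDFM21L.1 assembly) held 35 and 36 reads on maltose and 1 and 2 on glucose, or 1.04 and 0.921 FPKM against 0.0305 and 0.0574 FPKM. These few reads were called higher on maltose (log2 difference 0.92 ± 0.19, adjusted p = 0.0056), although both alleles are deleted, and in IMX1765, which keeps the gene, SeMALT1 stood at 14.1 and 16.2 FPKM on maltose and 1.20 and 1.20 FPKM on glucose. ScMAL13 had 423 and 915 FPKM on maltose and 700 and 818 FPKM on glucose, so that the glucose values lay inside the range of the maltose cultures (log2 difference -0.28 ± 0.43, adjusted p = 0.70), and the sign turned without maltose culture 1. The mating type could not be checked, since no haploid library was compared. Genes that haploid cells express summed to 73.0 and 68.0 FPKM on maltose and 63.8 and 75.3 FPKM on glucose.

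With ScMAL13 present on both sugars, SeAGT1, SeMALS1 and SeMALS2 were among the 15 largest called rises outside chromosome 9 with separate cultures. SeAGT1, the transporter gene of which the assembly holds 3 identical copies (chromosome 7, 4054 to 5886; chromosome 14, 769430 to 771262; chromosome 15, 4200 to 6032), was listed at 9836 and 13670 FPKM as the sum of the 3 copies on maltose, against 3.29 and 11.8 FPKM on glucose. The difference was 10.61 ± 0.49 (SE) on the log2 scale (adjusted p = 1.2e-06), far larger than the spread between cultures of either sugar. In RNA from whole cultures, a change in every cell and a change in some cells only cannot be told apart. The copies were listed at nearly the same level, 3337, 3161 and 3338 FPKM in maltose culture 1, and those of chromosomes 7 and 15 had equal values in each glucose culture. The methods of the study state that ambiguously mapped reads were removed, and the paper treats the 3 copies as not distinguishable. Reads are nevertheless listed at each copy, and how they were assigned was not tested. If each read was counted at every copy, the sum is up to 3 times too high on either sugar.

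The other transporter genes rose less. SeMALT2, which carries a premature stop codon, had 63.9 and 132 FPKM on maltose and 3.31 and 3.96 FPKM on glucose (26.9 ± 13.6-fold, SD, n = 2 each; adjusted p = 3e-05). SeMALT3, likewise interrupted by a stop codon, had 226 and 306 FPKM on maltose and 20.4 and 33.8 FPKM on glucose (9.82 ± 4.02-fold; adjusted p = 3e-05). The 3 transporter genes left in the strain were thus called higher. In FPKM, a unit per gene length, a single SeAGT1 copy was listed above SeMALT3 and SeMALT2 on maltose, with the same doubt about the counting of its reads.

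The maltase genes SeMALS1 and SeMALS2, whose products cut maltose into glucose, moved together. SeMALS1 (chromosome 2, 17343 to 19100) had 924 and 1126 FPKM on maltose against 9.19 and 10.3 FPKM on glucose, a log2 difference of 6.57 ± 0.20 (adjusted p = 8.1e-08). SeMALS2 (chromosome 12, 413756 to 415513) had 1274 and 1499 FPKM on maltose against 10.5 and 11.9 FPKM on glucose, a log2 difference of 6.83 ± 0.21 (adjusted p = 9.3e-08). Cultures of 1 sugar differed little next to these gaps.

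The native MAL regulator genes were also higher on maltose. SeMALR3 had 62.6 and 113 FPKM on maltose and 0.654 and 1.41 FPKM on glucose (log2 difference 5.41 ± 0.31, adjusted p = 4.2e-06). SeMALR2 had 59.7 and 70.0 FPKM on maltose and 5.14 and 7.51 FPKM on glucose (3.18 ± 0.32, adjusted p = 7.6e-05). SeMALR1, which has a premature stop codon, had 70.4 and 59.3 FPKM on maltose and 23.4 and 42.5 FPKM on glucose (1.01 ± 0.25, adjusted p = 0.015), and this call was lost without glucose culture 1 and without maltose culture 1. On glucose, SeMALR1 was the highest of these native regulator genes and SeMALR3 the lowest, while on maltose their ranges overlapped.

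**Figure D1:**
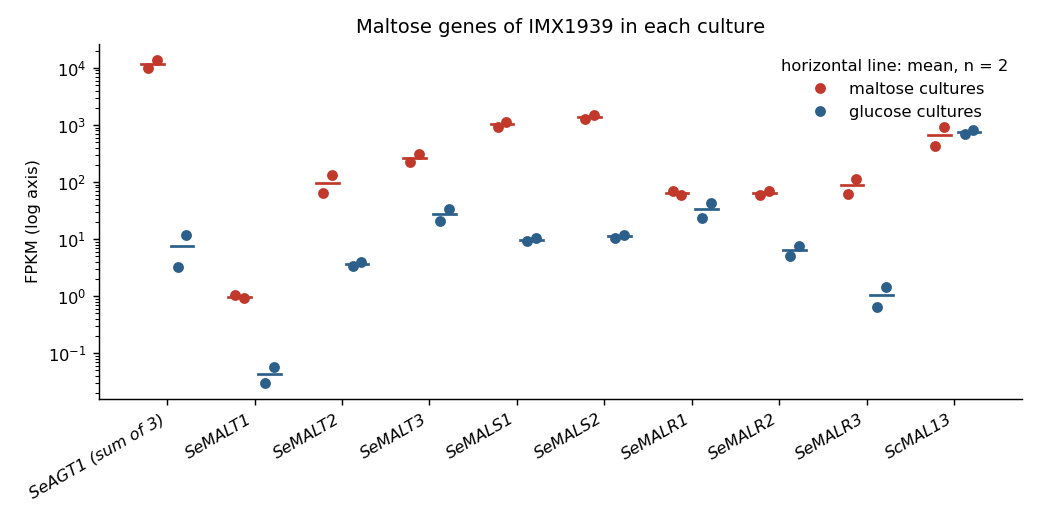
FPKM of the maltose genes in each culture of IMX1939, on a log axis, with maltose cultures in red left of glucose cultures in blue and a line at the mean of 2 cultures. SeAGT1 is drawn as the sum of 3 copies, whose reads may be counted more than once, at 9836 and 13670 FPKM on maltose and 3.29 and 11.8 FPKM on glucose, whereas the ScMAL13 points of the sugars overlapped.

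Isomaltase genes, for alpha-glucosidases that cut isomaltose and related sugars, rose with the maltase genes. All 6 tested outside chromosome 9 were higher, against 18.7% of all genes there, with a median log2 difference of 5.52. The IMA1 copy of chromosome 13 had 3984 and 3393 FPKM on maltose and 13.3 and 19.5 FPKM on glucose (7.75 ± 0.21, adjusted p = 5.5e-08). IMA5 had 1166 and 933 FPKM on maltose and 60.8 and 70.7 FPKM on glucose (3.97 ± 0.15, adjusted p = 3.3e-07). Reads can be shared among the copies of IMA1 and IMA2, so that their separate values are uncertain. SUC2, the invertase gene for sucrose, on chromosome 9, did not pass the test, at 4575 and 4361 FPKM on maltose and 3334 and 4920 FPKM on glucose (log2 difference 0.14 ± 0.18, adjusted p = 0.63), and its sign turned without glucose culture 1.

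Transporter genes for hexoses and polyols divided. Of 19 tested outside chromosome 9, 12 were higher and 4 lower on maltose, against 18.7% and 6.33% of all genes there. HXT3, a low-affinity glucose carrier, was nearly lost on maltose, at 2.5 and 2.06 FPKM against 1301 and 1031 FPKM on glucose, which was 512 ± 108-fold higher in the glucose cultures (log2 difference -8.47 ± 0.17, adjusted p = 1.6e-08). HXT1, also a low-affinity carrier, had 0.497 and 0.560 FPKM on maltose and 50.8 and 660 FPKM on glucose (-6.92 ± 0.89, adjusted p = 0.00036). The glucose cultures differed widely in HXT1, yet neither overlapped the maltose cultures. HXT2 was lower too, at 16.3 and 6.35 FPKM on maltose and 43.6 and 206 FPKM on glucose (-3.09 ± 0.62, adjusted p = 0.0055), and so was HXT4, at 4.51 and 3.11 FPKM against 12.7 and 159 FPKM (-3.30 ± 0.87, adjusted p = 0.022). The call of HXT4 was lost when either maltose culture was left out.

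Among the transporters that rose, HXT8 had 763 and 650 FPKM on maltose against 7.63 and 7.58 FPKM on glucose (6.36 ± 0.16, adjusted p = 5.2e-08). The HXT13 copies of chromosomes 16 and 13, related to polyol transporters, were listed at nearly equal values, 1129 and 3838 FPKM for that of chromosome 16 on maltose and 1.61 and 10.7 FPKM on glucose (8.56 ± 0.73, adjusted p = 3.1e-05), and may share reads. STL1, the glycerol proton symporter, which was not among the 19, had 1158 and 823 FPKM on maltose and 1.03 and 5.96 FPKM on glucose (8.02 ± 0.53, adjusted p = 7.2e-06). Rises above those of the maltase genes were thus also seen in genes of other substrates.

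Regulators of the glucose response moved in both directions. Of 19 regulator genes of repression and derepression tested, 8 were higher and 3 lower, against 18.7% and 6.33% of all genes outside chromosome 9. The 3 lower ones were the repressor genes MIG1, MIG2 and MIG3. MIG1 had 18.2 and 14.5 FPKM on maltose and 38.1 and 47.8 FPKM on glucose (log2 difference -1.34 ± 0.20, adjusted p = 0.0011). MIG3 had 1.63 and 1.26 FPKM on maltose and 20.9 and 10.3 FPKM on glucose (-2.69 ± 0.27, adjusted p = 8.4e-05). CAT8, an activator of gluconeogenic genes, rose to 32.8 and 37.8 FPKM on maltose, against 0.423 and 0.797 FPKM on glucose (4.50 ± 0.26, adjusted p = 4.2e-06). The calls of MIG1, MIG2 and MIG3 were lost with all 14 S. eubayanus libraries in the fit. ADR1, an activator of ADH2 and of peroxisomal genes, had 74.4 and 76.9 FPKM on maltose and 5.30 and 5.69 FPKM on glucose (3.56 ± 0.14, adjusted p = 4.2e-07).

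Of 8 glucose sensing genes 2 were higher and 1 lower, against 18.7% and 6.33% of all genes outside chromosome 9, with 1 higher without glucose culture 1, and 1 higher and 2 lower under quantile normalization. The fall was STD1, a regulator of the Rgt2 and Snf3 sensor pathway, with 1.80 and 1.55 FPKM on maltose and 54.7 and 42.6 FPKM on glucose (-4.21 ± 0.18, adjusted p = 7.4e-07). SNF3, the high-affinity glucose sensor, had 45.2 and 49.4 FPKM on maltose and 9.76 and 16.7 FPKM on glucose (1.81 ± 0.23, adjusted p = 0.00033). Maltose and glucose cultures did not overlap in either gene.

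Genes for growth on carbon sources other than sugar were higher as groups. All 11 tested genes of the glyoxylate cycle and gluconeogenesis were called higher, against 18.7% of all genes outside chromosome 9. Their median log2 difference was 3.35, against 0.09 over all genes outside chromosome 9. FBP1, for fructose-1,6-bisphosphatase of gluconeogenesis, had 67.2 and 97.0 FPKM on maltose and 0.779 and 0.538 FPKM on glucose (5.63 ± 0.21, adjusted p = 3.3e-07). ICL1, for isocitrate lyase of the glyoxylate cycle, had 83.9 and 101 FPKM on maltose and 0.846 and 1.44 FPKM on glucose (5.45 ± 0.21, adjusted p = 3.3e-07). PCK1, for the carboxykinase that opens gluconeogenesis, had 12 and 17.4 FPKM on maltose and 0.495 and 0.467 FPKM on glucose (3.39 ± 0.20, adjusted p = 4.4e-06). The PCK1 level on maltose remained the lowest of these enzyme genes per length.

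Of 12 genes for uptake and use of lactate and acetate, 10 were higher and none lower, with a median of 2.20. Among all genes outside chromosome 9, 18.7% were higher and 6.33% lower. JEN1, the lactate and pyruvate carrier, had 299 and 541 FPKM on maltose and 3.12 and 5.63 FPKM on glucose (6.27 ± 0.37, adjusted p = 5e-06). CYB2, for the mitochondrial lactate dehydrogenase, had 319 and 558 FPKM on maltose and 1.68 and 4.27 FPKM on glucose (6.81 ± 0.41, adjusted p = 5.2e-06). CAT2, for carnitine acetyltransferase, which moves acetyl units between compartments, had 181 and 160 FPKM on maltose and 6.70 and 9.08 FPKM on glucose (4.28 ± 0.18, adjusted p = 5.1e-07).

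Peroxisomal fatty acid oxidation followed, with 11 of 15 genes higher and none lower, against 18.7% and 6.33% of all genes outside chromosome 9. The median of the group was 2.26. POX1, for the acyl-CoA oxidase that starts the pathway, had 32.0 and 28.9 FPKM on maltose and 0.314 and 0.364 FPKM on glucose (4.55 ± 0.57, adjusted p = 0.00032). The sugars did not overlap in this gene.

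Mitochondrial genes rose by less but with few exceptions. Their counts are to be read against 18.7% higher and 6.33% lower among all genes outside chromosome 9. In the TCA cycle 15 of 16 genes outside chromosome 9 were higher (median 1.80), in the respiratory chain 21 of 22 (median 1.64, lowest 1.16), in the ATP synthase 15 of 16 (median 1.52), and among mitochondrial ribosomal proteins 68 of 69 (median 1.48, between 1.11 and 1.96), and none was called lower. CIT1, the citrate synthase gene, had 1358 and 1639 FPKM on maltose and 196 and 329 FPKM on glucose (2.55 ± 0.24, adjusted p = 4.8e-05). CYC1, for cytochrome c, had 7507 and 7758 FPKM on maltose and 1446 and 1057 FPKM on glucose (2.63 ± 0.15, adjusted p = 4.4e-06). MRPL50, for a protein of the large mitochondrial subunit, had 273 and 263 FPKM on maltose and 70.7 and 65.8 FPKM on glucose (1.96 ± 0.13, adjusted p = 9.2e-06). The ribosomal proteins moved within less than 1 log2 unit of each other, the narrowest spread of these mitochondrial groups. The 14 models of the mitochondrial genome itself reached no more than 1.15 FPKM in any of the 4 libraries.

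Glycolysis went the other way: 11 of 14 genes were lower on maltose and none higher, with a median of -0.98. Among all genes outside chromosome 9, 6.33% were lower and 18.7% higher. The TDH2 copy of chromosome 10, for glyceraldehyde-3-phosphate dehydrogenase, had 1116 and 1923 FPKM on maltose and 5635 and 5239 FPKM on glucose (-1.89 ± 0.28, adjusted p = 0.00083). CDC19, for pyruvate kinase, had 1461 and 2051 FPKM on maltose and 4000 and 3769 FPKM on glucose (-1.17 ± 0.18, adjusted p = 0.00097). The sugars did not overlap in either gene. Without maltose culture 1 the group had 7 lower genes and a median of -0.62, and without glucose culture 2 it had 8 lower and 1 higher.

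Genes of the path between pyruvate, ethanol and acetate divided. Against 18.7% higher and 6.33% lower of all genes outside chromosome 9, 3 of 14 were higher and 3 lower (median -0.25). The higher ones were ADH2, ALD4 and ACS1, whose products in S. cerevisiae act in the use of ethanol and acetate, and the lower ones PDC1, ADH1 and ADH4. ADH2, for the alcohol dehydrogenase that consumes ethanol, had 258 and 175 FPKM on maltose and 2.18 and 4.31 FPKM on glucose (5.70 ± 0.33, adjusted p = 4.2e-06). ALD4, for a mitochondrial aldehyde dehydrogenase, stood at 2555 and 1287 FPKM on maltose, but at 7.60 FPKM in glucose culture 1 and 404 FPKM in glucose culture 2, and its call (4.94 ± 1.35, adjusted p = 0.025) was lost when either maltose culture was left out. PDC1, for the pyruvate decarboxylase of ethanol formation, had 1139 and 2494 FPKM on maltose and 8276 and 6651 FPKM on glucose (-2.14 ± 0.40, adjusted p = 0.0035). The maltose cultures lay below both glucose cultures in PDC1.

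All 124 tested cytosolic ribosomal protein genes outside chromosome 9 had a negative difference, between -0.94 and -0.21 (median -0.63). Of these, 58 were called lower, against 6.33% of all genes outside chromosome 9. RPL9A, for example, had 932 and 776 FPKM on maltose and 1831 and 1386 FPKM on glucose (-0.90 ± 0.24, adjusted p = 0.02), a call lost without glucose culture 1 or maltose culture 2. Counts of lower genes moved with single cultures: 0 without glucose culture 1, 34 without glucose culture 2, 16 without maltose culture 1, 2 without maltose culture 2, and 118 after median-ratio scaling. Ribosome biogenesis genes gave 1 higher and 0 lower of 124, against 18.7% and 6.33% of all genes outside chromosome 9. Their median was -0.19, but 0.27 without glucose culture 1 and 0.17 without maltose culture 2. No gene of the proteasome outside chromosome 9 was called among 32 (median -0.01) by limma or voom. The proteasome group had 0 higher and 0 lower at an unadjusted p under 0.05 in limma, although quantile normalization gave 8 lower calls.

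**Figure D2:**
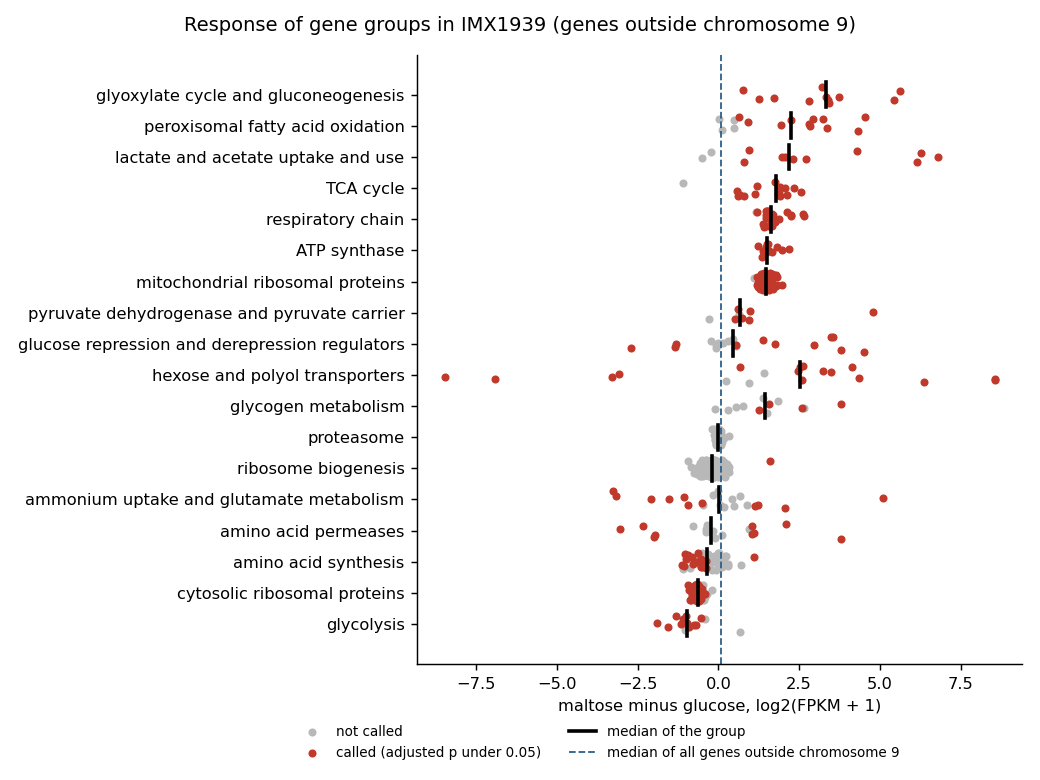
Log2 differences of maltose minus glucose for each tested gene outside chromosome 9 in 18 groups, with genes called in red, other genes in grey, the group median as a black bar and the median of all genes outside chromosome 9 (0.09) dashed. The groups of gluconeogenesis and respiration lie to the right, and glycolysis and cytosolic ribosomal proteins to the left.

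Nitrogen genes included both rises and falls. Of 20 genes of ammonium uptake and glutamate metabolism outside chromosome 9, 4 were higher, close to the 18.7% of all genes, and 7 lower, against 6.33% of all genes. Of 18 amino acid permease genes 5 were higher and 4 lower, and 3 were higher without maltose culture 1. DAL5, the allantoate permease gene, had 46.1 and 29.2 FPKM on maltose and 298 and 440 FPKM on glucose (-3.27 ± 0.23, adjusted p = 1e-05). GNP1, a glutamine permease gene, had 2.31 and 2.65 FPKM on maltose and 26.2 and 28.9 FPKM on glucose (-3.04 ± 0.14, adjusted p = 9e-07). GDH3, a glutamate dehydrogenase gene that glucose represses in S. cerevisiae, moved against them, with 468 and 363 FPKM on maltose and 9.30 and 13.1 FPKM on glucose (5.10 ± 0.19, adjusted p = 3.3e-07). Amino acid synthesis had 17 of 55 genes lower and 1 higher (median -0.36), a count that was 8 without glucose culture 1, 11 without glucose culture 2, 4 without maltose culture 2 and 31 after median-ratio scaling.

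Several calls among stress and storage genes depended on single cultures of either sugar, and the glucose cultures differed from each other in some of these genes. Counts of these groups are to be read against 18.7% higher and 6.33% lower among all genes outside chromosome 9. HSP12, for a membrane-protecting stress protein, had 1786 and 2212 FPKM on maltose, but 22.3 FPKM in glucose culture 1 and 384 FPKM in glucose culture 2 (4.39 ± 1.00, adjusted p = 0.011, lost without maltose culture 2). Of 12 glycogen genes 4 were called higher, 9 without glucose culture 2, 1 without glucose culture 1, 2 without maltose culture 1 and 1 without maltose culture 2. Of 7 trehalose genes 1 was called higher, and 5 were without glucose culture 2, while 1 was lower without glucose culture 1. Of 14 genes of hydrophilins and stationary phase 5 were higher and 2 lower, with 2 to 7 higher when a culture was left out. AHP1, for a peroxiredoxin, fell to 1491 and 1658 FPKM on maltose, against 5157 and 6886 FPKM on glucose (-1.92 ± 0.18, adjusted p = 6.1e-05), among 5 higher and 7 lower of 22 genes of oxidative stress defence. Higher genes of that group numbered 2 without glucose culture 1 and 3 when either maltose culture was left out.

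Several of the largest differences fell outside these groups. The HPF1 copy of chromosome 3, for a cell wall mannoprotein, had 2201 and 3346 FPKM on maltose and 3.65 and 29.4 FPKM on glucose (7.84 ± 0.69, adjusted p = 3.5e-05). TMA10, for a ribosome-associated protein, had 2008 and 4319 FPKM on maltose and 6.46 and 91.3 FPKM on glucose (6.81 ± 0.98, adjusted p = 0.00076). HPA2, for an acetyltransferase, had 779 and 706 FPKM on maltose and 26.1 and 25.5 FPKM on glucose (4.79 ± 0.14, adjusted p = 6.7e-08). The glucose cultures were close in HPA2 and far apart in the other 2 genes, although no glucose culture reached a maltose culture.

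Among the largest falls, IRC7, a cysteine desulfhydrase gene, in its copy of chromosome 6 had 8.20 and 3.94 FPKM on maltose and 76.6 and 54.8 FPKM on glucose (-3.29 ± 0.29, adjusted p = 3.3e-05). TPO2, for a polyamine exporter, had 8.50 and 10.0 FPKM on maltose and 71.0 and 82.8 FPKM on glucose (-2.93 ± 0.17, adjusted p = 4.2e-06). AAC3, a minor ADP/ATP carrier gene that S. cerevisiae expresses when oxygen is scarce, had 1.38 and 0.989 FPKM on maltose and 12.1 and 10.6 FPKM on glucose (-2.50 ± 0.18, adjusted p = 1e-05). A PHO3 copy of chromosome 4, for an acid phosphatase repressed by thiamine in S. cerevisiae, had 107 and 146 FPKM on maltose and 837 and 543 FPKM on glucose (-2.42 ± 0.25, adjusted p = 8.4e-05). Of 24 vitamin B6 and thiamine genes 2 were higher and 7 lower, against 18.7% and 6.33% of all genes outside chromosome 9. The median of that group was -0.17, and -0.30 to -0.14 when a culture was left out.

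In other groups a part of the genes was called. Of 8 genes of pyruvate dehydrogenase and the mitochondrial pyruvate carrier 6 were higher, led by MPC3, a carrier subunit gene, at 596 and 754 FPKM on maltose and 4.59 and 104 FPKM on glucose (4.79 ± 1.03, adjusted p = 0.008). Of 36 genes of iron and copper uptake 11 were higher and 2 lower, shares to be read against the 18.7% and 6.33% of all genes outside chromosome 9, and without maltose culture 2 the count was 7 higher. Of 25 ergosterol genes 1 was higher and 6 lower, but only 3 were lower without glucose culture 1 and 2 without maltose culture 2. Of 11 pentose phosphate genes 2 were higher, close to the share of all genes, and 3 lower, with 1 lower without glucose culture 1 and 0 without maltose culture 2. None of 4 hexokinase genes was called by limma on FPKM as deposited or by voom, with 1 higher and 1 lower at an unadjusted p under 0.05 in limma, whereas 3 were called higher without glucose culture 2 and 1 lower after median-ratio scaling or quantile normalization.

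Genes of chromosome 9 were higher on maltose as a whole. Of the 186 tested, 96 were called higher (51.6%) and 4 lower (2.15%), against 18.7% and 6.33% of the genes elsewhere. Their median difference was 0.59, against 0.09 for the other genes, and 164 of 186 lay above the median of the others. The interquartile range was 0.32 to 0.94 on chromosome 9 and -0.18 to 0.42 elsewhere. Each of the other 15 chromosomes had a median between 0.01 (chromosome 3) and 0.21 (chromosome 1) and between 15% and 21.1% of its genes called higher.

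The shift was present in both maltose cultures and along the whole chromosome. Relative to the median of the other genes and to the glucose mean, chromosome 9 stood at 0.50 and 0.54 in the maltose cultures, at -0.04 and 0.04 in the glucose cultures, and at -0.05 and -0.03 in the maltotriose cultures of the same strain. With the genes divided by their order into 4 stretches from one end to the other, the medians were 0.62, 0.67, 0.51 and 0.64, with 25, 24, 24 and 23 genes called higher. The gap of 0.51 between chromosome 9 and the other genes was 0.50 after median-ratio scaling, 0.53 after quantile normalization and 0.52 in voom on recovered reads. Against CDFM21L.1 on glucose, the IMX1939 maltose cultures stood at 0.57 and 0.61 and the IMX1939 glucose cultures at 0.04 and 0.10 for this chromosome. Chromosome 4 was also above CDFM21L.1, at 0.37 and 0.39 in the maltose cultures and 0.35 and 0.40 in the glucose cultures of IMX1939, but did not differ in this way between the sugars. Since both maltose cultures carried the chromosome 9 shift and neither glucose culture did, effects of sugar and of the shift on genes elsewhere cannot be told apart. DNA copy number was not analysed here.

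**Figure D3:**
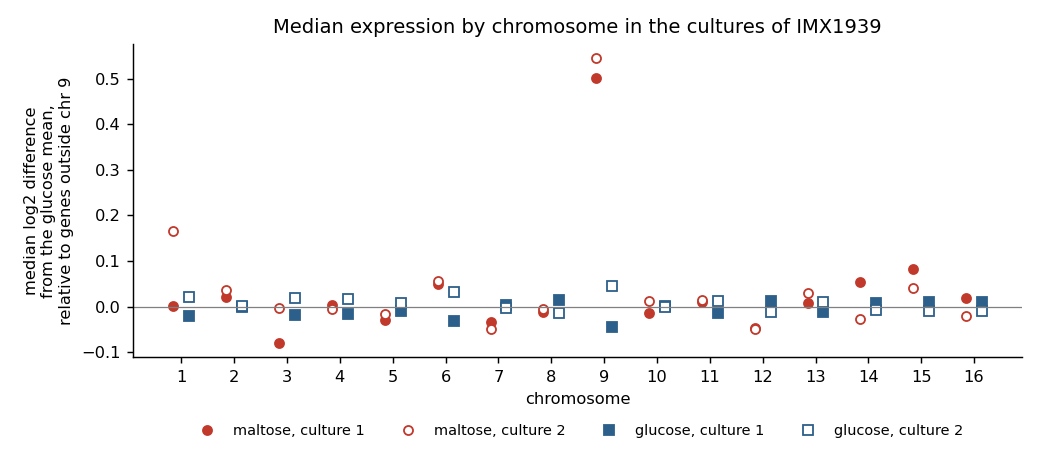
Median log2 difference from the glucose mean for each chromosome in each culture of IMX1939, relative to all genes outside chromosome 9, with maltose cultures as red circles left of glucose cultures as blue squares. Chromosome 9 stood at 0.50 and 0.54 in the maltose cultures and at -0.04 and 0.04 in the glucose cultures, apart from the other chromosomes.

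The 5 highest differences on this chromosome were those of GUT2, POT1, RGI2, OM45 and MAM33, of which only POT1 belongs to a group described above. GUT2, for mitochondrial glycerol-3-phosphate dehydrogenase, had 1256 and 1116 FPKM on maltose and 27.0 and 64.9 FPKM on glucose (4.79 ± 0.34, adjusted p = 9.9e-06). POT1, for the thiolase of peroxisomal fatty acid oxidation, had 190 and 114 FPKM on maltose and 4.25 and 5.23 FPKM on glucose (4.70 ± 0.34, adjusted p = 1e-05). RGI2, a gene of respiratory growth, held 225 and 332 reads on maltose and 0 and 3 on glucose. MAM33, for a protein of the mitochondrial matrix, had 1010 and 979 FPKM on maltose and 119 and 108 FPKM on glucose (3.12 ± 0.13, adjusted p = 4.5e-07), and OM45, for an outer membrane protein of mitochondria, 217 and 294 FPKM against 19.0 and 39.9 FPKM (3.15 ± 0.35, adjusted p = 0.00016). Of the respiratory groups, KGD1, the TCA cycle gene on this chromosome, was higher as well (1.53 ± 0.17, adjusted p = 0.00016), whereas COX5B, for a subunit of cytochrome c oxidase, was not called at 48.5 and 67.0 FPKM on maltose and 9.52 and 46.8 FPKM on glucose, except without glucose culture 2.

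The 4 genes called lower in spite of the shift were DAL7, GPP1, DAL3 and HIS5. DAL7 and DAL3, genes of allantoin breakdown, had 119 and 74.0 FPKM on maltose against 411 and 336 FPKM on glucose (-1.97 ± 0.20, adjusted p = 8.1e-05), and 75.3 and 75 FPKM against 135 and 172 FPKM (-1.01 ± 0.18, adjusted p = 0.0025). GPP1, for a glycerol-3-phosphate phosphatase, had 805 and 786 FPKM on maltose and 1471 and 2703 FPKM on glucose (-1.32 ± 0.26, adjusted p = 0.0049). HIS5, of histidine synthesis, had 281 and 247 FPKM on maltose and 371 and 362 FPKM on glucose (-0.47 ± 0.12, adjusted p = 0.016), a call lost without glucose culture 1 or maltose culture 2. When chromosome 9 genes were centred on their own median, 30 were higher and 33 lower.

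**Figure D4:**
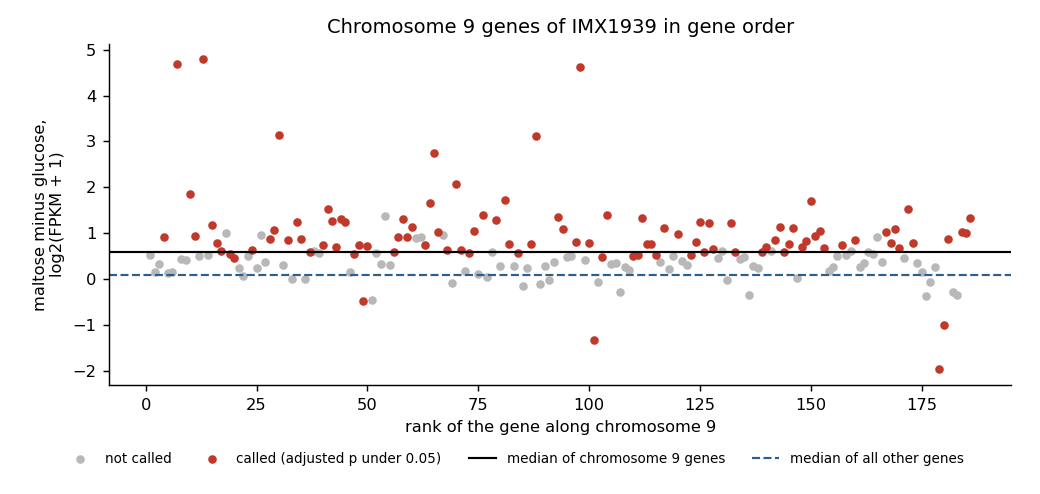
Log2 difference of maltose minus glucose for the 186 tested genes of chromosome 9, by their rank along the chromosome, with called genes in red and the medians of chromosome 9 (0.59, solid) and of all other genes (0.09, dashed). Most genes lie above the dashed line from end to end.

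The same sugars in IMX1765 gave a response that could be set against that of IMX1939 without shared samples. The difference of the responses, IMX1939 minus IMX1765, was called for 13 genes outside chromosome 9 (0.249% of those tested), of which 12 were positive, and for 7 genes on chromosome 9 (3.76%), all positive. Its median was 0.68 on chromosome 9 and 0.14 elsewhere. Chromosome 9 itself had a median response of 0.59 in IMX1939 and -0.08 in IMX1765, where all 4 cultures, on either sugar, stood between 0.47 and 0.49 relative to CDFM21L.1. Chromosome 15 stood at 0.39 to 0.42 in these IMX1765 cultures, but at 0.02 to 0.09 in the IMX1939 cultures on maltose and glucose. The strains therefore differed by chromosome shifts as well as by SeMALT1, and effects of the shifts and of the deletion cannot be told apart here. SeAGT1 (-0.35 ± 0.70, adjusted p = 0.92), SeMALS1 (-0.45 ± 0.28, adjusted p = 0.70) and SeMALS2 (-0.34 ± 0.30, adjusted p = 0.84) showed no difference that passed the test.

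INO1, for inositol-3-phosphate synthase, had 1187 and 825 FPKM on maltose and 14.5 and 14.9 FPKM on glucose in IMX1939, while IMX1765 had 363 and 345 FPKM on maltose and 65.3 and 51.3 FPKM on glucose (difference 3.39 ± 0.25, adjusted p = 0.00073). HMX1, for heme oxygenase, had 122 and 117 FPKM on maltose and 14.8 and 15.7 FPKM on glucose in IMX1939, and 67.4 and 81.4 FPKM on maltose and 82.6 and 95.7 FPKM on glucose in IMX1765 (3.16 ± 0.20, adjusted p = 0.00038). For both genes the glucose level was lower in IMX1939 than in IMX1765, and the maltose level higher. THI4, of thiamine synthesis, was low in IMX1939, at 0.656 and 0.517 FPKM on maltose and 2.80 and 1.74 FPKM on glucose, while IMX1765 had 1.10 and 1.02 FPKM on maltose and 97.8 and 47.2 FPKM on glucose (4.04 ± 0.46, adjusted p = 0.008). PDC6, a minor pyruvate decarboxylase gene, likewise had 1.41 and 1.27 FPKM on maltose and 0.835 and 0.999 FPKM on glucose in IMX1939, and 2.11 and 1.52 FPKM on maltose and 21 and 22.4 FPKM on glucose in IMX1765 (3.31 ± 0.35, adjusted p = 0.0057). In these 2 genes the strains stood apart mainly on glucose.

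The calls of this comparison were fewer or more numerous with other libraries: 37 and 55 without IMX1939 glucose culture 1 and 2, 13 when either IMX1939 maltose culture was left out, 6 and 10 without IMX1765 maltose culture 1 and 2, and 7 when either IMX1765 glucose culture was left out. With all 14 S. eubayanus libraries in the fit no gene was called by limma, with 263 at an unadjusted p under 0.05, against 576 in the fit of 12 libraries.

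**Figure D5:**
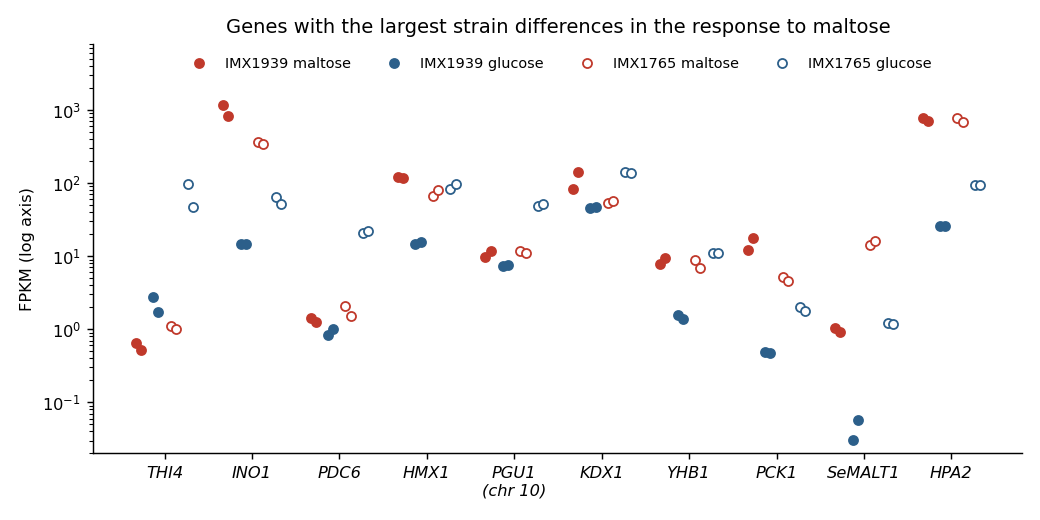
FPKM on a log axis for the 10 genes with the largest called strain difference in the response, with IMX1939 filled and IMX1765 open, and maltose in red left of glucose in blue. THI4 stood at 97.8 and 47.2 FPKM in the IMX1765 glucose cultures and at 2.80 FPKM or less in the other 6 cultures shown.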

How the data were processed

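RNA was sequenced from 2 cultures per strain and sugar. Per the labels and the study's methods, the authors mapped reads to the CDFM21L.1 assembly with STAR 2.5.3a, counted them per gene (featureCounts of Subread 1.6.3 in the submitters' processing notes, htseq-count in the methods) and deposited FPKM values made with edgeR. The deposited FPKM gave whole reads for 100% of values (tolerance 0.05 read), which set the depths. The authors' tables of differential expression were not used.

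The 5513 deposited gene models were joined to 5508 genes, since divided models and the SeAGT1 copies were each joined, and 5462 models were named by their systematic name. Testing covered genes that averaged 1 FPKM or more over 12 libraries in 6 groups, on log2(FPKM + 1), a scale that understates changes of low genes, with limma 3.58.1 (eBayes with trend) in R 4.3.3 and Benjamini-Hochberg adjustment at 0.05. IMX1765 on maltotriose was left out because 1 library held 318922 reads. The fit was run on simulated reads with a single spread for all genes and no culture or chromosome shift. That run cannot show how the fit handles such shifts. Figures and summaries were made in Python 3.11.15. Values in parentheses after FPKM are log2 differences of maltose minus glucose ± SE, and fold ± SD come from FPKM means.

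Alternatives covered the pseudocount, filter, scaling, libraries in the fit, replicate block, trend, fold threshold, voom on recovered reads, separate gene models and leaving out each culture. Named genes were the maltose genes, ScMAL13 and SGA1, the 15 largest rises and falls outside chromosome 9 with separate cultures, the 5 highest and 5 lowest of chromosome 9, the 10 largest strain differences and the 4 largest changes of each gene list, of which a part is printed. The members and lists were chosen with earlier results of these data known. Coordinates are those of the deposited files for the CDFM21L.1 assembly.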

Additional observations from a re-analysis of the deposited data

Results flagged for a closer look

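The response to maltose differed between IMX1939 and IMX1765 for 20 genes in the test of the difference itself, 13 of them named here. Outside chromosome 9 the differences in log2 units, IMX1939 minus IMX1765, were 4.04 for THI4, 3.39 for INO1, 3.31 for PDC6, 3.16 for HMX1, 2.53 for the PGU1 copy of chromosome 10, 2.52 for KDX1, 2.41 for YHB1, 2.36 for PCK1, 1.86 for HPA2, 1.62 for CAT2 and -1.95 for SeMALT1. Values on chromosome 9 were not centred on its median difference of 0.68, against 0.14 elsewhere. They were 1.16 for MAM33 and 0.99 for RSM25. Of these, INO1, PDC6, HMX1, PGU1 and HPA2 were called in 18 of 19 alternatives, the exception being the fit of all 14 libraries, and SeMALT1, which is deleted in IMX1939, in 9. PCK1 was called in 13 of 19. YHB1 had 7.93 and 9.36 FPKM on maltose and 1.59 and 1.37 FPKM on glucose in IMX1939, and 8.86 and 6.86 FPKM on maltose and 11.1 and 11.0 FPKM on glucose in IMX1765.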

How the results depend on the processing

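Of 1672 values of 112 named genes under the alternatives, 1606 kept their direction and their side of the threshold, 61 of 22 genes lost their call, 3 gained one (SUC2 0.58 and POR2 -0.68 under quantile normalization, COX5B 2.46 without glucose culture 2) and 2 turned, namely ScMAL13 (-0.84 to 0.27 when a culture was left out, positive without maltose culture 1) and SUC2 (-0.14 to 0.42, negative without glucose culture 1). The SeMALT1 strain difference turned to 0.48 (adjusted p = 0.88) in voom on recovered reads, with adjusted p between 0.010 and 0.88 over its alternatives. With only the compared libraries, which leave the fewest residual degrees of freedom, calls outside chromosome 9 fell to 598 higher and 203 lower, and on chromosome 9 to 43 higher and 2 lower, and 14 named genes lost their call, among them SeMALR1, HXT2, HXT4, MIG2, ALD4, MPC3, HSP12, GPP1 and HIS5. With all 14 libraries 14 also did, among them SeMALT1, SeMALR1, HXT4, HIS5 and RPL9A. At an absolute log2 difference of at least 1 the calls outside chromosome 9 were 554 higher and 106 lower, and 41 higher on chromosome 9. Lower calls outside chromosome 9 were 635 after median-ratio scaling, 934 after quantile normalization and 121 with all 14 libraries. Centring chromosome 9 gave 30 higher and 33 lower there, and median-ratio scaling moved its median to 0.48. Strain differences numbered 32 with no filter, 13 after quantile normalization, 38 without a trend and 0 with all 14 libraries. Other causes were not tested. Leaving out 1 culture gave 762 to 1010 higher and 144 to 266 lower genes outside chromosome 9, 75 to 95 higher and 3 to 5 lower on it, a chromosome 9 median of 0.55 to 0.68, and 6 to 55 strain differences.

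Replicate numbers did not establish pairs, with 2 per group. The deviations of same-numbered maltose and glucose cultures correlated at 0.57 across genes, which are not independent. In the same strain r was 0.59 for glucose and maltotriose and 0.70 for maltose and maltotriose. Other pairs of groups had r between -0.46 and 0.40. The main fit held no replicate term. With the replicate block 1066 genes were higher and 449 lower outside chromosome 9, 103 and 4 on it, 111 of the cytosolic ribosomal protein genes were lower, 1 hexokinase gene was higher, and 35 strain differences were called.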
